A study of Rattus norvegicus with 6 samples.

Results

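Oligodendrocyte precursor cells kept in culture without alpha-synuclein fibrils formed the untreated group of this study, and their transcriptome is described here on its own. It comprised the 3 control libraries of the 6 in the series; the libraries from fibril-exposed cells were not used. The cells were grown as primary cultures; they came from Sprague-Dawley rats aged 1 to 2 days, and the cerebral cortex was the tissue taken. Mixed glia were grown in DMEM with 20% fetal bovine serum, and the cells that did not adhere were collected and grown on poly-DL-ornithine in Neurobasal medium with 2 mM glutamine, 1% penicillin and streptomycin, PDGF and FGF (each at 10 ng/ml) and 2% B27 for 4 to 5 days. The labels name no transgene, selection marker or sort, so the cells were defined by how they were detached and fed. Strand-specific Agilent SureSelect libraries were sequenced on an Illumina MiSeq. Separate cultures or animals behind the 3 libraries are not stated in the labels, so every SD below measures the spread between these libraries, which may be technical.

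The deposited table lists 32662 rat genes in FPKM, the mapped fragments of a gene per kilobase of its length, relative to the mapped fragments of the library. The 37 rows of the mitochondrial genome were set aside, and the remaining 32625 nuclear rows were rescaled to a total of 1000000 in each library and ranked, with rank 1 the highest. Levels below are these rescaled FPKM, which are per length and can be compared between genes. Where 3 values follow a gene they are control replicates 1, 2 and 3 in that order. With 1 group there is no contrast and no p-value, and each statement rests on the library values and their SD.

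Oligodendrocyte precursors are dividing glial cells that settle throughout the brain and give rise to the myelinating oligodendrocytes. PDGF acts through the receptor PDGFRA to keep them dividing and, together with FGF, holds back differentiation, which in turn starts with a short newly formed stage and ends with the transcription of myelin genes. The transcription factors OLIG1, OLIG2 and SOX10 mark the whole lineage, while PDGFRA, the proteoglycan NG2 (Cspg4) and the receptor phosphatase PTPRZ1 mark the precursor stage and GPR17 its exit.

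Ribosomal protein genes made up a large part of the highest transcripts, and the starts of several of them shared a short sequence feature. Messages for ribosomal proteins and elongation factors typically begin at a C followed by a run of pyrimidines, the 5′ terminal pyrimidine tract, through which growth signals regulate their translation. The windows below run from 35 bases before to 15 bases from the annotated start in RefSeq (GRCr8, strand given), for the 5 genes among the 30 highest that carry such a tract, with the tract in capitals.

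Rpl35: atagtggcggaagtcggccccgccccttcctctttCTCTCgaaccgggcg
Rps7: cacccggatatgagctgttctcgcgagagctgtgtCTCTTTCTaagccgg
Rplp0: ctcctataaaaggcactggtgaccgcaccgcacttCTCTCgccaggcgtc
Rplp1: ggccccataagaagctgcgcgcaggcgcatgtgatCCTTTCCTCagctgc
Rpl19: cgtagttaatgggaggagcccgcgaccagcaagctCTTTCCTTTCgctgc

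These lie at chr3:43165907-43165956 (minus strand), chr6:50999431-50999480 (minus), chr12:46718376-46718425 (minus), chr8:71290858-71290907 (minus) and chr10:83519029-83519078 (plus). For contrast, the same window is shown for a pair of genes from the same 30 without a tract, the dynein light chain gene Dynll1 (chr12:46973042-46973091, plus) and the brain fatty acid binding protein gene Fabp7 (chr20:37669571-37669620, plus).

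Dynll1: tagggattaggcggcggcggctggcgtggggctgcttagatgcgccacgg
Fabp7: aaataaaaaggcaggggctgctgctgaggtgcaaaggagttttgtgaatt

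A tract was counted where C at the annotated start was followed by 4 bases that were each C or T, on the gene's own strand. Of the 30 highest genes, 22 were matched to a single promoter of the same symbol in the RefSeq table. Of these, 5 held a tract, or 22.7%. All 5 encode ribosomal proteins, and 0 of the 11 matched genes of the 30 that are not ribosomal protein genes held one. The split was not clean, since Rpl13, Rpl21, Rps2, Rpl23, Rpl11 and Rpsa of the same 30 held none by this count. Nor did the elongation factor gene Eef1a1. Across ribosomal protein genes at a level of 1 or more in all 3 libraries, 21 of 56 matched promoters (37.5%) held it, against 187 of 7303 (2.56%) of the other genes at that level and 881 of 33469 (2.63%) of all promoters in the table. None of the 15 matched precursor marker and identity genes held it. Where annotated starts are a few bases off, a tract is missed by this count, so the shares describe the annotation as much as the genes.

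The 3 libraries were unequal, and control replicate 1 stood apart. Mitochondrial rows took 80.3%, 34.6% and 21.2% of the deposited FPKM of replicates 1, 2 and 3. The number of fragments is unknown, but from genes below 1 FPKM a single fragment was estimated to be worth 4.03 times as much in replicate 1, and 0.824 times as much in replicate 3, as in replicate 2. These estimates are rough, since 8.98% and 19.5% of the gene ratios fell in the window that set them. Above 0 were 11985, 14204 and 13866 nuclear genes, fewest in replicate 1. Across nuclear genes, log2(level + 1) correlated at Pearson 0.984 between replicates 2 and 3, and at 0.939 and 0.931 between replicate 1 and each of these (genes are not independent replicates, and 17425 of the 32625 were at 0 in all 3). Of the 10514 genes at 1 or more in every library, 91.1% lay within 2-fold between replicates 2 and 3, but only 55.1% between 1 and 2 and 45.6% between 1 and 3. Values are therefore given by library throughout.

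**Figure D1:**
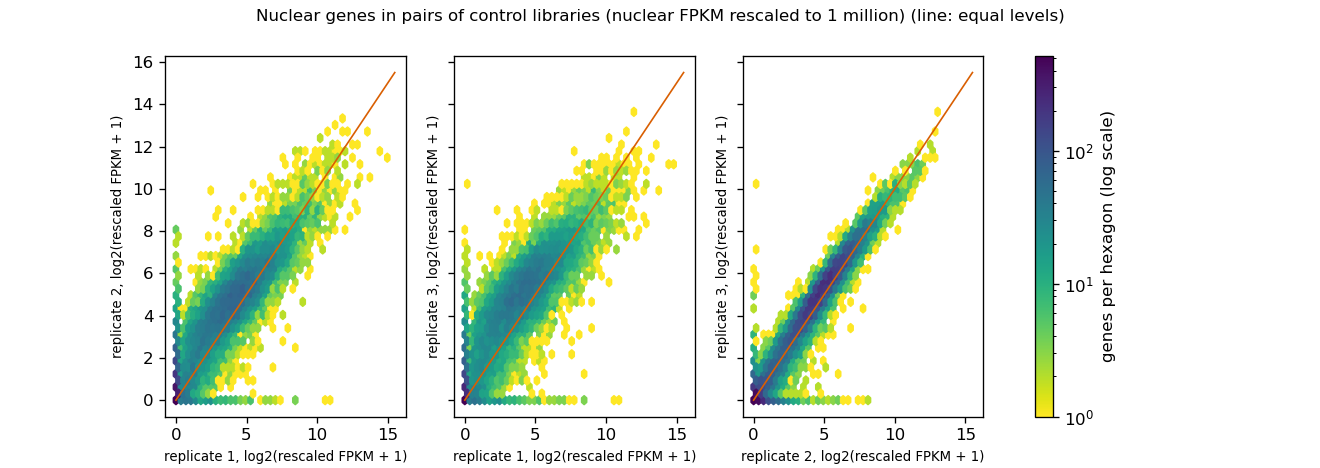
Each panel plots log2(rescaled FPKM + 1) of the nuclear genes in 1 control library against another, with hexagons shaded by the number of genes on a log scale and a line at equal levels. Replicates 2 and 3 lie close to the line (Pearson 0.984), while replicate 1 spreads widely against both (0.939 and 0.931).

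Replicates 2 and 3, although close, differed by the span of the gene locus. The median log2 ratio of replicate 3 to replicate 2 was -0.07 for the 1395 genes with loci under 5 kb and 0.62 for the 865 genes with loci of 150 kb or more, around a median of 0.28 for all 10514 genes. The ratio was larger class by class in between, at 0.05, 0.30 and 0.50, and the Spearman correlation of the ratio with locus span was 0.38 across genes. Between replicates 1 and 2 the class medians ran from -0.79 to -0.36 without such an order. Genes with long loci therefore tended to be higher in replicate 3 than in replicate 2. Of the 10514 genes, 57.9% were highest there, against 21.9% in replicate 1 and 20.1% in replicate 2. On the nuclear total, replicate 1 was the highest or the lowest library for 80.4% to 88.3% of these genes by class of median level. With 21.9% highest there, most of these genes were lowest in replicate 1. Where the ratios centre depends on the scaling: the median log2 ratio of replicate 1 to replicate 2 was -0.59 on the nuclear total, -0.17 on the deposited FPKM and 0.06 after quantile normalization, and that of replicate 3 to replicate 2 was 0.28, 0.08 and 0.06. In the 8166 genes whose locus string was their own, an alternative chosen after seeing the data, the correlation with span was 0.40. The share of 57.9% is on the nuclear total and is the background there for any statement on which library was highest, and the part of locus span in the gene groups below was not tested.

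**Figure D2:**
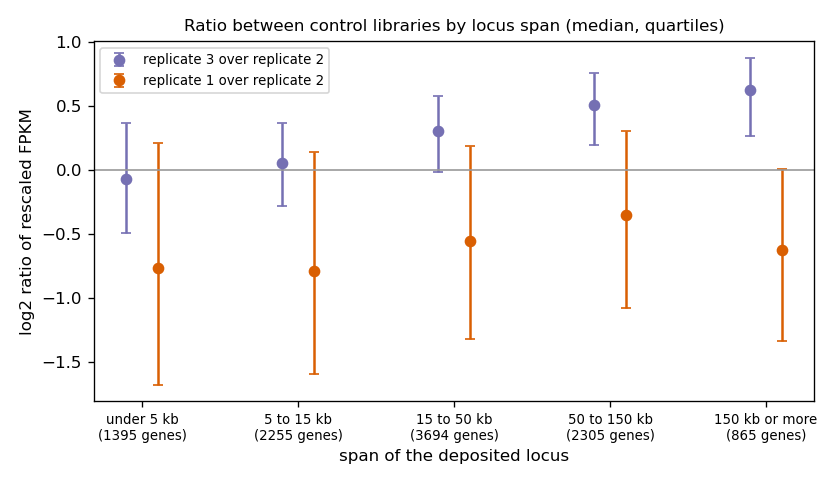
Median and quartiles of the log2 ratio between control libraries, for genes at a level of 1 or more in all 3, by class of locus span in the deposited table. The ratio of replicate 3 to replicate 2 climbs from -0.07 in the shortest class to 0.62 in the longest, and the ratio of replicate 1 to replicate 2 has no such order. Where 0 lies depends on the scaling.

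The transcripts of these cultures were spread over a minority of the annotated genes. At a level of 1 or more in all 3 libraries were 10514 nuclear genes, or 32.2% of the table, and 17425 (53.4%) were listed at 0 in all 3. At 100 or more in every library were 1126 genes, and at 1000 or more only 55. The 10 highest genes of each library held 12.3%, 6.41% and 5.06% of its nuclear total, a mean of 7.94% ± 3.88 (SD, n = 3). The 100 highest held 27.4% ± 7.63 and the 1000 highest 63.0% ± 8.40 (SD, n = 3). Replicate 1 was the most concentrated on few genes and replicate 3 the least at each of these sizes. A listed 0 need not mean absence: the housekeeping genes Hprt1 and Rps6 and the glycolytic gene Tpi1 were also at 0 in all 3 libraries.

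The actin gene Actb led replicates 2 and 3, and ribosomal protein genes were numerous among the highest transcripts. Actb, encoding cytoplasmic beta-actin (chromosome 12, 13715843 to 13718841 in the deposited coordinates, whose build is not given in the sources used here), stood at 3746, 9313 and 13307. It was the highest nuclear gene in replicates 2 and 3 and the 23rd in replicate 1. A further 3 actin regulators were among the 30 genes with the smallest median rank: the actin monomer binding peptides Tmsb10 (1867, 6561 and 3369) and Tmsb4x (4885, 6935 and 2565), and the filament severing protein cofilin, Cfl1 (2265, 4014 and 4350.1). Tmsb10 and Tmsb4x were highest in replicate 2, Actb and Cfl1 in replicate 3.

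Protein synthesis accounted for more of the 30 than any other function named here. Ribosomal proteins supplied 13 of them, and cytosolic ribosomal protein genes together held 12.1%, 15.6% and 8.85% of the nuclear total (12.2% ± 3.37, SD, n = 3). Eef1a1, the elongation factor that brings aminoacyl-tRNA to the ribosome, was at 2714, 7926 and 7119. Tpt1, the translationally controlled tumor protein gene, was at 11789, 6514 and 4157 and kept a rank of 4 or 5 in each library. Naca, which binds nascent chains as they leave the ribosome, was at 3009, 3099 and 1921. Near-identical copies and pseudogenes of ribosomal protein genes can share fragments with them, so the level of any single one is uncertain. Of the 101 ribosomal protein rows, 14 were at 0 in all 3 libraries.

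Several of the 30 are genes of glia and their precursors. Fabp7, a lipid carrier of radial glia and early glial progenitors, was among the steadiest, at 3316, 3196 and 2062 (ranks 26, 29 and 32). Dbi, an acyl-CoA binding protein whose peptides act at GABA-A receptors, stood at 7495, 4182 and 1919.8. Cst3, the secreted protease inhibitor cystatin C, was at 1164, 5959.7 and 2640.1. Replicate 1 held the highest value of Fabp7 and Dbi and the lowest of Cst3.

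Bcas1, a gene that marks oligodendrocytes at the onset of myelination, ranked 5th, 53rd and 14th at 9234, 2172 and 2549.6. It was the only member of the newly formed oligodendrocyte list among the 30. Ywhae, which encodes the adaptor protein 14-3-3 epsilon, was at 5619, 3069.7 and 3386, and Ppp1r14b, an inhibitor of protein phosphatase 1, at 1194, 3227 and 2239.7. An unnamed gene on chromosome 10 (ENSRNOG00000042271, 48881049 to 48881881) was at 209, 3005 and 3745. It was the lowest of the 30 in replicate 1, at rank 810 there, and at rank 32 and 6 in the others.

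Some of the highest genes of replicate 1 were much lower in the others. Dynll1, the light chain of cytoplasmic dynein, was its highest gene at 31199.9 but only the 36th and 23rd in replicates 2 and 3, at 2791 and 2244. Rpl23, at 22412 in replicate 1, was at 3574 and 2343 in the others. Of the 30 genes, 13 were also among the 30 highest of replicate 1, 25 of replicate 2 and 23 of replicate 3. Actb, Rpl23, Rpl35, Rps7, Tmsb4x and Tpt1 were the 6 that stood in the top 30 of all 3 libraries. Without replicate 1, 26 of the 30 were kept.

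**Figure D3:**
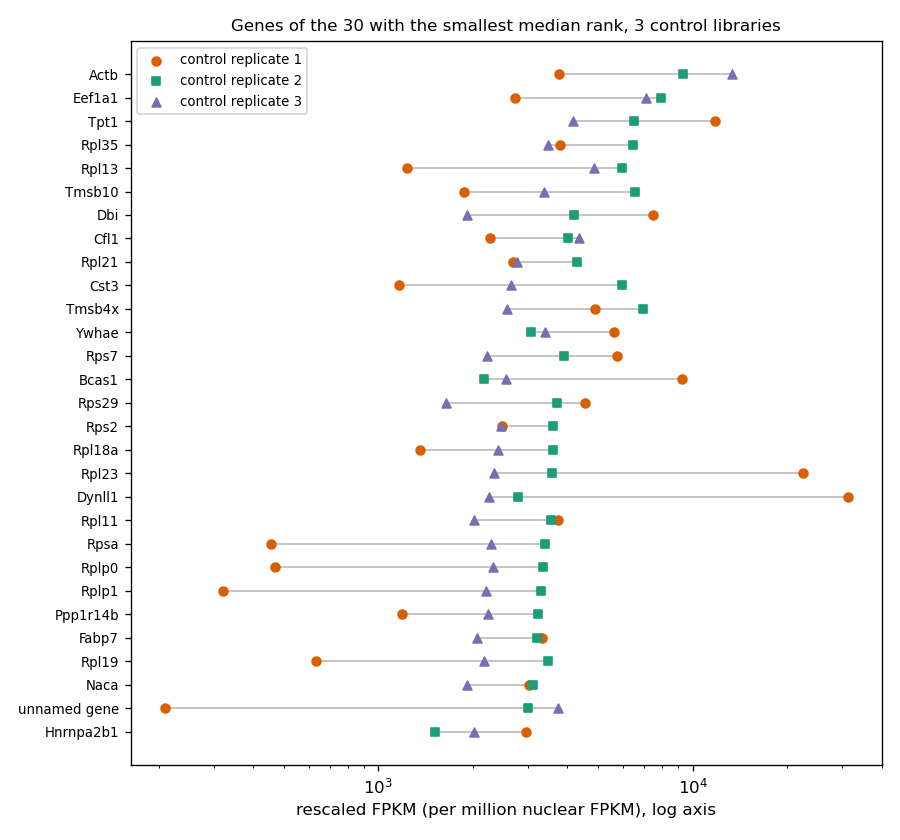
Rescaled FPKM (log axis) of genes from the 30 nuclear genes with the smallest median rank, with a marker for each control library and a line from its lowest to its highest. Over the whole 30, replicate 1 is the lowest library for 15 and the highest for 11, with Dynll1 at 31199.9 farthest from its companions.

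When ribosomal proteins were set aside, their 13 places went mostly to general genes such as Eef2, Ppia, Tuba1a and Hsp90ab1, but also to Nnat, Ptn, Ckb and Olig1. Nnat, encoding the imprinted membrane proteolipid neuronatin, stood at 2142, 2619 and 2333, a coefficient of variation of 10.2%. Ptn, the growth factor pleiotrophin and a ligand of PTPRZ1, stood at 2079, 2458 and 2031 (10.7%). Both varied far less than most genes at this level. For the 112 genes with a median over the libraries of 1000 or more, and at 1 or more in each, the median ratio of the highest to the lowest library was 2.61. Ckb, brain creatine kinase, was at 921, 2173 and 2792, and Olig1 was the 23rd of this list.

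All 6 precursor markers were abundant, in the top 5% of nuclear genes in every library. Their percentiles among nuclear rows ranged from 95.5 (Pdgfra in replicate 1) to 99.9 (Olig1 in replicate 3), and the median of the 6 was 98.6, 99.1 and 99.7 by library (99.1 ± 0.554, SD, n = 3). For comparison, the median percentile of the genes at 1 or more in all 3 libraries was 83.8, since a majority of rows are at 0. In bulk RNA, fewer cells of a type and less RNA per cell cannot be told apart, so these are levels of the culture and not shares of cells.

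Olig1 (chromosome 11, 31428358 to 31430517), a basic helix-loop-helix factor of the lineage, had levels of 435, 1922 and 2239, or 1532 ± 963 (SD, n = 3). Its neighbour Olig2 (chromosome 11, 31389514 to 31392890), the factor that specifies the lineage, had 1679, 691 and 1117, or 1162 ± 496. The pair therefore ran in opposite order: replicate 1 was the lowest for Olig1 and the highest for Olig2. Sox10 (chromosome 7, 120176530 to 120430320), which acts at every later step of the lineage, had 309.9, 529 and 949.9 and was highest in replicate 3.

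Pdgfra (chromosome 14, 35527927 to 35581031), the receptor for the PDGF in the medium, had the widest ratio of highest to lowest library of the 6 (9.85), at 109, 445 and 1071 (542 ± 488, SD, n = 3; ranks 1481, 347 and 98). Ptprz1 (chromosome 4, 49941304 to 50140762), the receptor phosphatase that binds pleiotrophin, had 254, 418 and 1064. Gpr17 (chromosome 18, 24708115 to 24823858), a receptor of precursors that have begun to differentiate, had 848, 375 and 1628. Replicate 3 was highest for 5 of the 6 markers and Olig2 was the exception. On the nuclear total replicate 3 also exceeded replicate 2 for all 6, by log2 ratios of 0.22 (Olig1), 0.69 (Olig2), 0.85 (Sox10), 1.27 (Pdgfra), 1.35 (Ptprz1) and 2.12 (Gpr17), against the median of 0.28 for all genes. Olig1 lay below that median and the other 5 above it. The loci of Olig1 and Olig2 span 2160 and 3377 bases, that of Pdgfra 53105 and that of Ptprz1 199459. The deposited loci of Gpr17 and Sox10 (115744 and 253791 bases) are shared with other rows, Lims2 among those of Gpr17, and are not the spans of these genes alone. Long loci were higher in replicate 3 in general, and their part in these ratios was not tested. The order of the 3 libraries by the summed level of the 6 depended on the scaling: replicate 3 was the highest under all 4 scalings tried, but the lowest was replicate 1 on the nuclear total and replicate 2 on the deposited FPKM.

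The wider precursor identity list followed the markers. Of its 19 genes analysed here, 17 were at 1 or more in all 3 libraries and 0 were at 0 in all 3, with a median percentile of 94.7 ± 3.88 (SD, n = 3). The highest were Serpine2, a secreted inhibitor of serine proteases, at 451, 1231 and 1647, and Cspg5, a neural chondroitin sulfate proteoglycan, at 72.9, 494 and 677. Epn2, an endocytic adaptor, was at 172, 458 and 591, and the secreted complement-like protein gene C1ql1 at 260.2, 396 and 527. Each of these 4 was lowest in replicate 1, as were most genes at 1 or more in all 3 libraries. Each was also highest in replicate 3, and of the 17 genes 15 were highest in replicate 3. Cspg4, which encodes NG2, had the widest range of the members above 0 in every library, at 10.5, 96.2 and 348. Neu4, a sialidase gene, was the lowest of the list, at 0, 1.88 and 2.57.

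Transcription factors of the lineage were present nearly in full. Of 42 analysed here, 35 were at 1 or more in all 3 libraries, with a median percentile of 91.8 ± 2.95 (SD, n = 3), and 25 of these 35 were highest in replicate 3. After Olig1, Olig2 and Sox10 came Zeb1 (277, 409 and 433), a zinc finger repressor, then Sox8 (182, 314 and 617), the close relative of Sox10. Sox2, which maintains neural progenitors, was at 313, 208 and 298 and varied little between libraries.

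Factors that restrain differentiation and factors that drive it were detected side by side. Among the former, Id2, an inhibitor of basic helix-loop-helix factors, was at 146, 258 and 212, and the SoxD gene Sox6, which opposes Sox10, at 91.1, 153 and 348. The Notch effector Hes5 was at 0, 61.8 and 63.6, the single factor above 50 in 2 libraries and at 0 in the other. Among the latter, Nkx2-2 was at 129, 173 and 354, Myrf, the activator of myelin genes, at 70.4, 36.7 and 111, and Zfp488 at 0.968, 24.8 and 45.0. Myrf and Tcf7l2 (141, 20.6 and 55.1), the Wnt effector of early differentiation, were both lowest in replicate 2.

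At the low end of the list were genes of other stages and domains. Nkx6-2, a factor of late oligodendrocytes, was at 1.09, 0.736 and 2.77, and St18 at 0.463, 0.139 and 0.201. The spinal cord progenitor factors Olig3 and Nkx6-1 were at 0 in all 3 libraries.

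**Figure D4:**
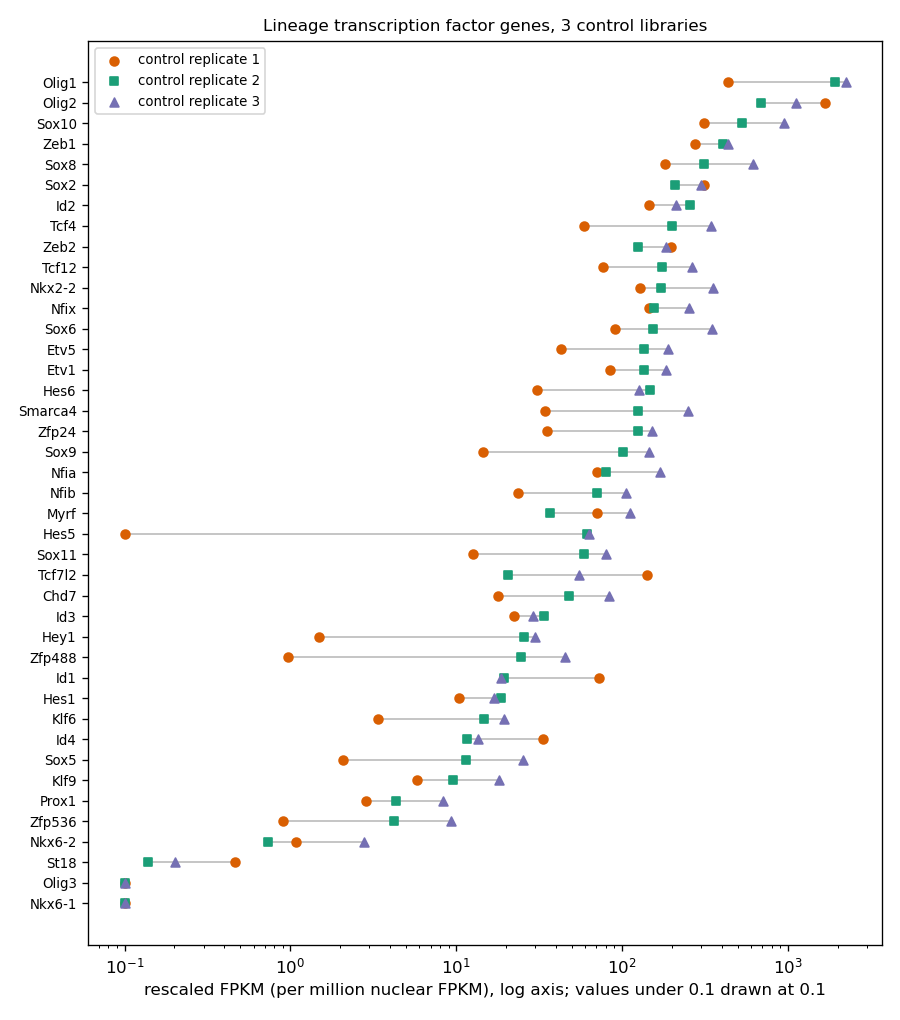
Rescaled FPKM (log axis, values under 0.1 drawn at 0.1) of lineage transcription factor genes, ordered by level, with a marker for each control library and a line from lowest to highest. Olig1 leads at up to 2239, and Olig3 and Nkx6-1 stand at 0 in every library.

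Genes of the newly formed stage were led by very few members. Of 13 analysed here, 11 were at 1 or more in all 3 libraries, and the median percentile of all 13 was 80.2 ± 3.66 (SD, n = 3). The 83.8 given above covers only genes at that level, so these medians are not directly comparable. Beside Bcas1, the list was led by the tubulin deacetylase gene Sirt2 (1668, 916 and 1305), the Src family kinase gene Fyn (949, 455 and 783) and Tcf7l2. All 4 were highest in replicate 1 and lowest in replicate 2. Enpp6, a lipid phosphodiesterase that marks newly formed oligodendrocytes, was at 30.2, 3.47 and 9.79, again highest in replicate 1. The summed level of the list was 12090.5, 3684 and 4855, of which Bcas1 alone gave 9234, 2172 and 2549.6.

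Myelin genes ranged from moderately high to near absent. Of 21 analysed here, 14 were at 1 or more in all 3 libraries (median percentile of the list 76.6 ± 3.45, SD, n = 3). Cnp, the myelin enzyme that appears early in the lineage, was at 1067, 674 and 1151, and the surface glycoprotein gene Omg at 425, 189.6 and 324. Mbp, the myelin basic protein gene, was at 156, 179 and 241. Omg was highest in replicate 1, Cnp and Mbp in replicate 3.

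Some other myelin genes were far lower. Mag, an adhesion molecule, was at 11.3, 7.13 and 26.9, and Mog, of the outer surface of myelin, at 1.72, 3.45 and 2.16. Mobp stood at 0.773, 0.717 and 0.594, Opalin at 0, 0 and 0.149, and Klk6 was at 0 in all 3 libraries. The summed level of the 21 genes was 2786, 1429 and 2363, and replicate 1 was the highest and replicate 2 the lowest under all 4 scalings.

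Markers of other cell types that mixed glia could contribute differed in level by type. Astrocyte genes were widespread, with 14 of 19 at 1 or more in all 3 libraries and a median percentile of 79.3 ± 0.313 (SD, n = 3). The highest by median level were the aldolase gene Aldoc (212, 204 and 272) and the glutamate transporter gene Slc1a3 (64.6, 186 and 209). Next came the glutamine synthetase gene Glul (111, 182 and 251) and the sodium pump subunit gene Atp1b2 (92.1, 134 and 194). Which cells these transcripts came from was not tested. Some genes with a narrower astrocyte expression were lower. Gfap, encoding the intermediate filament of astrocytes, was at 1.47, 1.13 and 2.58, the water channel gene Aqp4 at 11.8, 3.19 and 4.33, and the connexin gene Gjb6 at 0 in all 3 libraries. Others were higher than these in replicates 2 and 3, such as Slc1a2 (3.24, 26.5 and 41.3) and Gja1 (39.4, 11.6 and 23.5).

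Microglial genes were concentrated in replicate 2. Only 3 of the 18 analysed here were at 1 or more in every library, and the summed level of the 18 was 36.5, 255 and 58.4. Cd68, a lysosomal gene of macrophages, was at 14.5, 23.0 and 1.06. Tyrobp, the signalling adaptor of myeloid cells, was at 0, 13.7 and 0, and the complement gene C1qa at 0, 31.6 and 2.16. Fcer1g, the Fc receptor gamma chain, was at 2.39, 47.3 and 0, and Aif1, encoding IBA1, at 2.31, 13.4 and 0.781. Replicate 2 had the highest value of these 5, and of the summed list under all 4 scalings, but P2ry12 was highest in replicate 1 (3.30, 2.23 and 1.75).

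Genes listed as neuronal included some at high levels. Of 19, 13 were at 1 or more in all 3 libraries (median percentile 78.4 ± 1.99, SD, n = 3). The microtubule protein gene Map2 was at 1040.4, 563 and 859.6, the growth cone protein gene Gap43 at 739.6, 896 and 817, the doublecortin gene Dcx at 212, 155 and 251, and the synapsin gene Syn1 at 38.1, 75.7 and 125. Markers of differentiated neurons were mixed. Eno2, Thy1 and the vesicular glutamate transporter genes Slc17a6 and Slc17a7 were at 0 in all 3 libraries. The synaptic gene Snap25 was at 38.5, 33.0 and 36.4, Rbfox3 at 28.4, 14.1 and 24.9, and Elavl4 at 37.9, 29.5 and 26.2. Syt1, Stmn2, Nefl and Nefm were also at 1 or more in all 3 libraries. The GABA synthesis genes Gad1 and Gad2 did not exceed 1.82 (Gad1) and 1.44 (Gad2) in any library.

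Vessel, connective tissue and ependymal genes were at or near 0. None of the 9 endothelial genes reached 1 in all 3 libraries, with 4 at 0 throughout (Cldn5, Emcn, Esam and Tie1) and summed levels of 1.08, 0.434 and 1.57. Of 12 fibroblast and mural genes 7 were at 0 throughout. Tagln, a smooth muscle actin-binding protein gene, was the exception at 20.0, 2.08 and 5.16. Of 6 Schwann cell genes, Prx (5.61, 3.29 and 6.35) alone was at 1 or more in all 3, and 1 was at 0 in all 3. The 7 ependymal genes summed to 0, 1.13 and 1.82. Across all nuclear rows, 53.4% were at 0 in all 3 libraries and 32.2% at 1 or more in all 3. Counts at 0 alone therefore do not set these lists apart from the table.

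Genes shared with neural stem cells and radial glia were carried by a few members. Of 13, 9 were at 1 or more in all 3 libraries (median percentile 84.6 ± 5.30, SD, n = 3). Fabp7 and Sox2 led it, followed by Slc1a3 and by Vim, the vimentin gene, at 109, 159 and 63.2. Nes, the nestin gene, was at only 1.32, 6.79 and 5.57, and Prom1 at 1.11, 0.464 and 0.342. The summed level was 3895, 3942 and 2872, of which Fabp7 gave 3316, 3196 and 2062.

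**Figure D5:**
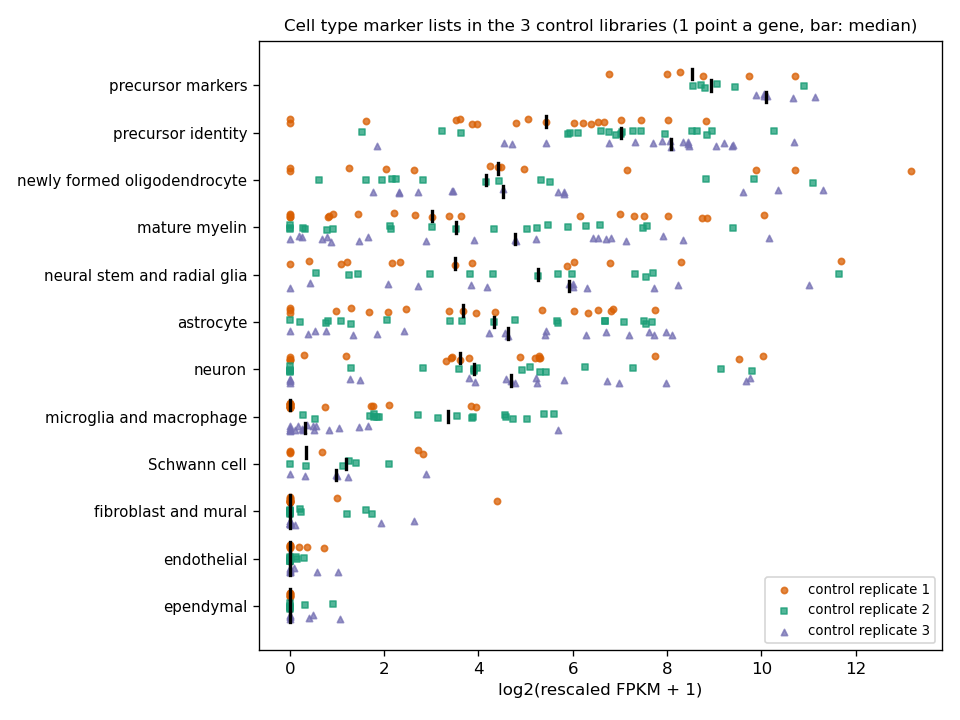
Level of each marker gene as log2(rescaled FPKM + 1) in 12 cell type lists, with 1 point per gene and library and a black bar at the median of a library. The precursor markers lie farthest to the right in all 3 libraries, and the endothelial, fibroblast and mural, and ependymal lists have medians at 0.

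Position genes of the forebrain were detected in part. Gsx1, a factor of the ventral telencephalon, was at 9.24, 92.7 and 168, the nuclear receptor gene Nr2f1 at 16.4, 75.9 and 126, and the cortical factor Lhx2 at 14.8, 42.4 and 53.7. These 3 were lowest in replicate 1 and highest in replicate 3. Most genes at 1 or more in all 3 libraries were also lowest in replicate 1. In total 6 of 18 forebrain genes (33.3%) were at 1 or more in all 3 libraries, near the 32.2% of all nuclear genes. A further 5 were at 0 in all 3.

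Factors of the hindbrain and spinal cord were nearly all at 0. Of 30, 25 were at 0 in all 3 libraries, most of them Hox genes. Among all nuclear rows that share was 53.4%. The midbrain and hindbrain border genes En1 (0, 5.08 and 5.51), En2 (1.95, 3.21 and 4.67) and Gbx2 (0, 4.13 and 5.18) gave almost all of the signal. The only Hox values above 0 were 2.05 for Hoxa3 and 0.645 for Hoxc4, both in replicate 1.

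The receptors that match the growth factors in the medium differed in level. Among 22 receptor tyrosine kinase genes, 14 were at 1 or more in all 3 libraries (median percentile 73.5 ± 2.06, SD, n = 3). Pdgfra led the list, followed by the neurotrophin receptor genes Ntrk2 (172, 254 and 510.1) and Ntrk3 (30.8, 105 and 140.0). Pdgfrb, the receptor of mural cells for the same ligand family, was at 0, 0.157 and 0.0735. Of the FGF receptors, Fgfr1 was at 22.6, 102 and 153, Fgfr3 at 4.52, 19.2 and 22.5, Fgfr2 at 5.96, 1.53 and 3.18, and Fgfr4 at 0, 0 and 0.129. Fgfr1 exceeded the other FGF receptors in every library. Fgfr2 was the only one of the 4 to be highest in replicate 1.

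Genes that ERK signalling switches on, many of which feed back on it, were expressed in every library. Of 19, 16 were at 1 or more in all 3 libraries, with a median percentile of 87.8 ± 5.90 (SD, n = 3). Ccnd1, the cyclin D1 gene that links growth factors to the cell cycle, was at 233, 561 and 553. The feedback inhibitor gene Spry2 was at 52.0, 152 and 144, and the ETS factors Etv5 and Etv1 at 43.1, 136 and 190.1, and 84.4, 135 and 184. Dusp6, the ERK phosphatase, was at 13.9, 58.7 and 49.4. The immediate early gene Fos was low, at 0, 7.70 and 4.02. All 6 were lowest in replicate 1, as were most genes at 1 or more in all 3 libraries.

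Transcripts of dividing cells were present throughout. Of 21 genes of DNA replication and the G1/S step 20 were at 1 or more in all 3 libraries, and of 18 mitotic genes 18 were. Cdk4, the partner of cyclin D, was at 255, 848 and 751, Pcna, the replication clamp, at 158, 258 and 245, and Ccnd2 at 174, 229 and 150.3. The mitotic genes were led by the ubiquitin-conjugating enzyme gene Ube2c (133, 223 and 192) and by Cdk1, the main mitotic kinase (180.3, 186 and 175). Ccna2, cyclin A2, was at 134, 126 and 138, and Birc5, survivin, at 45.9, 145 and 121. Cdk1 and Ccna2 lay within a narrow range while Mki67, the proliferation antigen gene, was at 15.3, 37.3 and 73.4. The median percentiles were 88.6 ± 2.01 for the G1/S list and 90.0 ± 3.93 for the mitotic list (SD, n = 3).

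Inhibitors of cyclin-dependent kinases were detected beside them, 6 of 6 at 1 or more in all 3 libraries. Cdkn1b, encoding p27, an inhibitor that accumulates as precursors leave the cycle, was at 197, 116 and 144. Cdkn1c, encoding p57, was at 659, 89.8 and 164, and Cdkn1a, encoding p21, at 69.0, 136 and 144. Replicate 1 had the highest value of Cdkn1c and Cdkn1b, and of the summed list under all 4 scalings. It was the lowest for Cdkn1a.

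Thyroid hormone times the exit of precursors from division, and B27 supplement supplies it to cultures. The receptor gene Thra was at 185, 387 and 589 and Thrb at 1.88, 1.01 and 1.72, so the alpha receptor exceeded the beta receptor by a wide margin in every library. Rxrb, a shared partner of nuclear receptors, was at 30.4, 77.8 and 53.2, and Nr3c1, the glucocorticoid receptor gene, at 71.7, 36.8 and 53.2. The glucocorticoid target Tsc22d3 was at 38.0, 15.6 and 6.47 and highest in replicate 1, as Nr3c1 was. Of 16 genes, 12 were at 1 or more in all 3 libraries.

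Cholesterol synthesis, which supplies the main lipid of myelin, was one of the highest groups. All 20 genes were at 1 or more in all 3 libraries, with a median percentile of 95.2 ± 1.02 (SD, n = 3). Hmgcs1, the synthase ahead of the rate-limiting step, was at 1801, 587 and 671, and Fdps, farnesyl diphosphate synthase, at 261, 719 and 466. The sterol demethylation genes Msmo1 and Cyp51 were at 365, 326 and 250.02, and 210.4, 268 and 255. Hmgcs1 and Msmo1 were highest in replicate 1, Fdps and Cyp51 in replicate 2.

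Glycolytic genes stood at a median percentile of 96.3 ± 1.89 (SD, n = 3), with 15 of 16 at 1 or more in all 3 libraries and Tpi1 at 0. Gapdh was at 469.6, 975 and 1319, Aldoa, encoding aldolase A, at 549, 515 and 749, and Eno1, encoding enolase, at 202, 408 and 628. Ldhb, the lactate dehydrogenase subunit that favours pyruvate, was at 81.9, 410.1 and 327. Of the 15 genes, 13 were highest in replicate 3.

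The extracellular matrix list was led by components of the neural matrix. Bcan, encoding brevican, was at 32.1, 367 and 667, and Ncan, encoding neurocan, at 32.6, 211 and 363. The membrane-bound metalloprotease gene Mmp15 was at 30.9, 347 and 521, and Spon1, encoding the secreted adhesion protein spondin 1, at 91.8, 232 and 501. All 4 were more than 2 times as high in replicate 2 as in replicate 1. Of 26 genes 17 were at 1 or more in all 3 libraries, and 14 of the 17 were highest in replicate 3. Hapln1, a link protein gene of perineuronal matrix, was at 0 in all 3, and fibronectin, Fn1, at 0.316, 0.205 and 0.529.

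Receptors for transmitters were selective by subunit. Of 26 glutamate and GABA receptor genes, 14 were at 1 or more in all 3 libraries and 4 were at 0, the NMDA receptor subunit gene Grin2a and the metabotropic receptor gene Grm7 among them. The GABA-B receptor gene Gabbr1 was highest, at 307, 177 and 189.6. Gria2, the AMPA receptor subunit that limits calcium entry, was at 210.4, 113 and 163, Gria4 at 54.0, 72.0 and 142, and the kainate receptor gene Grik5 at 7.99, 66.4 and 101. Gria1, another AMPA subunit, was at only 0, 5.56 and 4.36. Among 17 ion channel genes 10 were at 1 or more in all 3, led by the inward rectifier Kcnj10 (20.1, 46.8 and 99.5), and Kcna5 was at 0.

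Of the beta- and gamma-synuclein genes, only the former was above 0 in these untreated cells. Sncb, beta-synuclein, was at 7.24, 19.5 and 24.9, where the median of nuclear genes above 0 was 14.9, 17.6 and 22.6. Sncg, gamma-synuclein, was at 0 in all 3 libraries. Among genes whose products have been linked to fibril uptake or to synuclein disease, Park7 was at 187, 465 and 378 and the prion protein gene Prnp at 123, 117 and 174. The heparan sulfate proteoglycan genes Sdc3 and Gpc1 were at 81.4, 365 and 701, and 11.97, 95.3 and 168. Lag3, a proposed fibril receptor, was at 0, 0 and 0.225.

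Inflammatory genes were mostly at or near 0. Of 14, 2 were at 1 or more in all 3 libraries, namely Nfkbia (14.7, 33.7 and 31.1), the inhibitor of NF-kB, and Nfkb1 (7.42, 13.3 and 19.8). Ccl2, Ccl4, Ccl7, Il6 and Tnf were at 0 in all 3, as were 53.4% of all nuclear rows. Ccl3, Cxcl1, Cxcl10, Il1b and Lcn2 were above 0 in replicate 2 only, the library with the highest microglial genes, at levels from 0.418 (Cxcl10) to 2.72 (Ccl3). The part of microglial RNA in these values was not tested.

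Among genes with a level of at least 50 in some library and above 0 in all 3 (4665 genes), the median ratio of the highest to the lowest library was 2.40. The steadiest were Fh, the fumarase gene of the citric acid cycle (81.9, 83.1 and 81.3, a ratio of 1.02), Eif2s3x, a subunit gene of translation initiation factor 2 (241, 242 and 247), and Dnajb6, a co-chaperone gene (63.8, 65.4 and 65.3). Nit2, Papola, Eif4e2, Psmd7, Adipor1, Pex3 and Ift46 completed the 10 steadiest, with ratios of up to 1.05. None of the 10 belongs to a gene list described above.

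The widest ratio, 2419, belonged to Cers1, the neuronal ceramide synthase gene (chromosome 16, 20845576 to 20860789), at 0.0364, 65.6 and 87.9. The deposited table gives the same locus to Gdf1, a growth factor gene, and there the order was the opposite, with 12.5, 0.0191 and 0.0380. The pair is known to share a transcript, and which of the names carried the fragments differed between libraries. Dbi and LOC288978 (192, 13.5 and 3.68) also share 1 locus. Fam181b was at 1.55, 73.7 and 80.5 and Cacybp, a calcyclin-binding protein gene, at 509.9, 25.7 and 11.1. The locus of Cacybp is also that of an unnamed gene at 0, 291 and 239, again in the opposite order, and Fam181b too shares its locus with an unnamed gene. The other 6 of the 10 widest were rows with a LOC, RGD or clone-based name. In all 10, replicate 1 was either the highest or the lowest library. Among all genes at 1 or more in every library, that share was already 80.4% to 88.3% by class of median level.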

How the data were processed

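The deposited table gives FPKM per gene and library, per the file headers; control libraries only were used, grouped by title. Trimmomatic and FastQC are named, without versions, in the submitters' processing notes. No aligner, quantifier or genome build is named; each is not given in the sources used here. Because the fragment number is unknown, no interval could be computed, and the relative worth of 1 fragment came from ratios within 0.03 (log2) among genes below 1 FPKM.

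Nuclear rows were rescaled to 1000000 per library with Python 3.11.15, numpy 2.4.6, pandas 2.3.3 and scipy 1.17.1, and the ranking was tested on simulated data. Percentiles are among all nuclear rows, ties averaged. Deposited starts count from 0 and are printed from 1, and 6818 nuclear rows share a locus string with another row. Repeated symbols were represented by the row with the highest mean. Promoters were matched by exact symbol, and symbols with several promoters were left out.

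Genes and 29 lists (524 entries) were chosen with earlier results of these data known. Named were the 30 smallest median ranks, the 6 markers, up to 4 members per list with the highest median level, members at 0 in all libraries where there were 4 or fewer, any lineage factor, and the 10 steadiest and 10 widest genes at 50 or more. Other names, such as Cspg4, Neu4, Enpp6, Mag, Mog, Mobp, Opalin, Gfap, Aqp4, Tyrobp, C1qa, P2ry12, Snap25, Gad1, Gad2, Nes, Prom1, Tagln, Fgfr2, Fgfr3, Fgfr4, Pdgfrb, Dusp6, Fos, Mki67, Tsc22d3, Thrb, Fn1, Gria1, Sncb, Lag3, Gdf1, the Hox and border genes and the cytokines, were chosen after their values were seen. Lhfpl3, Kcnd2, Itpr2, Itgam, Pecam1, Foxd3, Foxj1, Sox3, Sox4, Ier2, E2f1, Ccnb2, Cdkn2d and Nos2 were not analysed here. Some genes that the naming rule covers are not reported here.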

Additional observations from a re-analysis of the deposited data

How the results depend on the processing

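Scaling a library cannot change ranks within it, so quantile normalization, median-of-ratios scaling and the deposited scale left the 30 highest genes as they were by construction. Without loci under 500 bases all 30 were kept too. Setting ribosomal proteins aside kept the 17 others, and leaving out 1 library kept 20 to 26. With mitochondrial rows in the total, the 10, 100 and 1000 highest nuclear genes held 3.54%, 13.5% and 32.7%. Leaving out 1 library gave 5.73% to 9.38%, 23.5% to 31.2% and 58.6% to 67.0%. The number of genes at the minimum was 10607 to 11586 without 1 library, 11474 at a minimum of 0.1, 8250 at 5 and 9418 on the deposited scale. The precursor marker percentile was 98.8 to 99.4 without 1 library and 98.1 among rows above 0 in a control library. Lists with a median percentile above 50 numbered 23, and 22 to 24 without 1 library. The mean Pearson correlation was 0.951, and 0.870 for genes at 1 or more in all 3. Of the lists, 25 of 28 moved by more than their spread when percentiles were taken among rows above 0. Across the 4 scalings the library with the highest summed level changed for 8 of 29 lists (astrocyte, neuron, stem and radial glia, endothelial, transmitter receptors, mitosis, ERK feedback and housekeeping). No paired analysis was possible because only 1 group is described. Low values of replicate 1 are likely the least precise, by a rough estimate of fragment worth.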

Other observations

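The genes at the top of control replicate 1 that the list of 30 leaves out included genes of respiration, chromatin and the nucleolus. Cox6c, a subunit gene of the respiratory chain's cytochrome c oxidase, was at 12437, 1567 and 935 in replicates 1, 2 and 3. Hmgn2, a nucleosome-binding protein gene, was at 7601, 1492 and 1119.7, Dynlrb1, another dynein light chain gene, at 6989, 1247 and 1035, and Npm1, the nucleolar protein nucleophosmin gene, at 6687, 1254 and 1148. Each was among the 10 highest genes of replicate 1 and was several times lower in both others, which lay close together.

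In all, 30 genes were at 100 or more in 1 library and listed at 0 in another. Of these, 15 were at 0 in replicate 1, 14 in replicate 2 and 19 in replicate 3, and 18 were above 0 in 1 library only. Most have a small RNA or clone-based name; Rmrp, the RNA of a mitochondrial and nucleolar RNase, was at 0, 239 and 19.0. Of the 30, 12 have a locus under 500 bases. Whether these zeros come from sampling or from the listing was not tested.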
